A study of Mus musculus with 19 samples.

Results

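The histone cluster genes were taken as every row of the deposited table whose gene symbol starts with Hist1h, Hist2h, Hist3h or Hist4h, which gave 62 of 29861 rows. Of these, 50 belong to the Hist1 group, 8 to Hist2, 3 to Hist3 and 1 to Hist4, which lie on mouse chromosomes 13, 3, 11 and 6. By histone class they comprise 6 genes of the linker histone H1, 15 of H2A, 18 of H2B, 11 of H3 and 12 of H4. Their levels were read in 19 lines of pancreatic organoids from mice, all on a C57B6/J background. Organoids are cultures in which epithelial cells grow as hollow spheres in a basement membrane gel. The 7 normal lines came from ducts of wild-type mice, the 6 PanIN lines from ducts of mice with Pdx1-Cre whose pancreas held intraepithelial neoplasia (PanIN, a precursor lesion of duct cancer), and the 6 tumor lines from adenocarcinomas of mice with Pdx1-Cre and Trp53LSL-R172H. Pdx1-Cre acts in the developing pancreatic epithelium, so recombination there is not limited to ducts. Every line was grown in Matrigel with EGF, FGF-10, gastrin, noggin, R-spondin, B27, nicotinamide, N-acetylcysteine and A83-01, an inhibitor of TGF-beta receptors. Of the 19 lines, 11 came from female and 8 from male mice. The labels give no ages and leave unsaid which lines, if any, come from 1 mouse or litter. The p-values rest on the scatter among lines, part of which may be technical.

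Replication-dependent histone genes supply the histones that package new DNA, and their RNA accumulates while a cell replicates its DNA and is degraded when replication ends. Their messenger RNAs are the exception among those of animals in that they normally end in a conserved stem-loop and not in a poly(A) tail. Libraries selected for poly(A) therefore miss most of this RNA, whereas the libraries here were made from total RNA after removal of ribosomal RNA. H2A, H2B, H3 and H4 form the core of the nucleosome, and H1 binds the DNA where it enters and leaves that core.

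The stem-loop is shown first, because it stands in place of the poly(A) tail that most libraries select for. It was searched in the longest GENCODE M21 transcript of each gene (62 of 62 matched by symbol), as 16 bases that form 6 stem pairs around a loop of 4 bases, with a pair of guanines at the start, a pair of cytosines at the end, a pair of thymines opening the loop, and pairing of guanine with thymine allowed. A match was found for 38 of the 62 genes, 37 of them expressed above the filter described below, against 1.21% of all 55341 gene names in that reference. The latter share counts a match in any transcript of a gene and includes the histone genes, so it is not measured in quite the same way. The 38 matches fell into 6 sequences, printed 5′ to 3′ with the stem in capitals and the loop in lower case.
Hist1h1c and 20 other genes of H1, H2A, H2B and H3: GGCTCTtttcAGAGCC
Hist1h4n and 5 other H4 genes: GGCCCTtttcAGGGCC
Hist1h3c and 5 other genes of H1, H2B and H3: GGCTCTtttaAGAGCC
Hist1h4i and Hist2h4: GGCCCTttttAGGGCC
Hist1h4b and Hist1h4j: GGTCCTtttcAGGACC
Hist2h2ac: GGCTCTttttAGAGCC
The H4 genes carried stems that none of the other classes had. Of the 24 genes with no match, 13 have a reference transcript shorter than 420 bases, about the coding part alone, so the absence of a match there says nothing about the gene. The stem-loop lay 3 to 4884 bases from the end of the reference transcript, within 75 bases of it for 17 genes and more than 300 bases from it for 17 others.

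The length of the transcript models bears on the levels. TPM, the unit of the deposited values, divides reads by transcript length and scales each library to the same total. In the authors' deposited table the mean signal behind 1 TPM ranged from 5.94 for Hist4h4 to 66.8 for Hist1h1d, with a median of 9.62 over the 59 tested genes. Hist1h1d had a mean of 186 TPM and Hist1h4h 1128 TPM, whereas their mean signals in the authors' deposited table were 12440.3 and 10982. Levels per length are compared between genes below with that limit. Differences between groups of lines compare a gene with itself. The copies are also alike in sequence: a median of 47.0% of the 50-base stretches of a tested gene's reference transcript occurred in a transcript of another gene, over 50% for 26 genes and 100% for Hist2h2aa2 and Hist2h3c1. Reads from such genes can be divided between copies by the counting, so the value of a single copy is less certain than the sum of a class.

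The promoters of 3 genes are shown as examples of an H2B, an H1 and an H4 window, which differ in the motifs they hold. Promoters came from RefSeq (GRCm38.p6), where 61 genes matched a single gene and 55 had a promoter window, and the 250 bases before the start site were searched on both strands. Capitals mark 4 motifs or their reverse complements, none of which contains another. The octamer bound by POU factors was searched as ATTTGCAT. The box bound by the factor NF-Y was searched as CCAAT. The TATA box that positions the start of transcription was searched as TATAAA. The box known from H1 promoters was searched as AAACACA.
Hist1h2bk, chr13:22035571-22035820, plus strand: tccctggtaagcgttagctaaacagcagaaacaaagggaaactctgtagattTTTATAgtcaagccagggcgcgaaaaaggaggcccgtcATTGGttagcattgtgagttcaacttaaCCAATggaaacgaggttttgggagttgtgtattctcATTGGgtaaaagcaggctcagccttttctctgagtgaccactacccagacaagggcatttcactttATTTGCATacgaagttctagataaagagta
Hist1h1e, chr13:23622559-23622808, minus strand: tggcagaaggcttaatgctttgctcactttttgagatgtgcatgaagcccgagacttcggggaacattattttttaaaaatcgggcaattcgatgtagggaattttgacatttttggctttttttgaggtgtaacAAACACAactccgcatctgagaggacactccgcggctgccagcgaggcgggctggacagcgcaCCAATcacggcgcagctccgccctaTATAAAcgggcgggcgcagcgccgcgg
Hist1h4i, chr13:22041363-22041612, minus strand: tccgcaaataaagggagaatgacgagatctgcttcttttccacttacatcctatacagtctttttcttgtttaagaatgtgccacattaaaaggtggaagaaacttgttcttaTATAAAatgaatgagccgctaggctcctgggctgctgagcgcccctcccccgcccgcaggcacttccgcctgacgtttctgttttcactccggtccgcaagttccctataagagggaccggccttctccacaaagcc
The octamer was present in 7 of 15 H2B and 7 of 14 H2A windows and in no window of H1, H3 or H4, against 1.60% of all 32851 promoter windows in the table. For the histone genes 1 window per gene was counted. Hist1h2be, an H2B gene, has 2 windows, and the counted one has the octamer while the other lacks it. The H1 box was present in 5 of 6 H1 windows, 2 of 14 H2A and 2 of 15 H2B windows, against 6.25% of all windows. CCAAT was present in all 6 H1, all 14 H2A and all 15 H2B windows, in 8 of 9 H3 windows and in 3 of 11 H4 windows, against 33.85% of all. TATAAA was present in 28 of 55 windows, against 12.4% of all. These matches are letters in a window and not measured binding. A match counts at any place in the window and on either strand, so a counted TATAAA need not lie where it could position the start. Because H2A and H2B genes are often divergent, 14 windows overlapped that of a partner on the opposite strand. Any of the 4 motifs in the shared part of such a pair is counted for both genes.

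Divergent partners, named here after their values were seen, differed in level per length. Hist1h2ah, an H2A gene, had a mean of 94.8 TPM over 19 lines, and its partner Hist1h2bk 1117 TPM, a ratio of 11.8. Hist1h2ae had 89.2 TPM and its partner Hist1h2bg 725 TPM. In the pair of Hist1h2an with 150 TPM and Hist1h2bp with 29.2 TPM the H2A gene was the higher. Over the 6 expressed pairs Pearson's r between partners across lines was 0.82 to 0.97, a description over 19 lines that share their depth and group differences.

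Of the 62 genes, 59 passed the filter for testing, a TPM of at least 1 in at least 6 lines. The other 3 were Hist1h1t, Hist1h2aa and Hist1h2ba, the genes of testis variants of H1, H2A and H2B, which reached at most 0.46, 0.32 and 0.29 TPM. The lowest tested gene was Hist2h2be, an H2B gene, with a mean of 4.28 TPM, and the highest was Hist1h4n, an H4 gene, with 1785 TPM. Because those 3 genes were low in every group, the filter removed no gene that was high in only 1 group.

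Summed over the 62 genes, histone cluster RNA took 0.911% to 4.56% of all TPM of a line. The 7 normal lines had a lowest sum of 9106 TPM (line 11), a median of 20642 and a highest of 27440.2 (line 10). The PanIN lines ranged from 14086 TPM (line 3) over a median of 20413 to 33178 (line 6). The tumor lines ranged from 20424 TPM (line 4) over a median of 32988 to 45597 (line 5). Thus 5 of 6 tumor lines lay above every normal line, the lowest of those by a narrow margin (tumor 3 with 27444 TPM), and tumor 4 lay inside the normal range. Of the PanIN lines, 5 of 6 lay inside the normal range and PanIN 6 above it. Group means were 19511 ± 6398 TPM (SD, n = 7) in normal, 20833 ± 6956 (SD, n = 6) in PanIN and 33494 ± 9176 (SD, n = 6) in tumor lines. The highest and lowest of the 19 lines differed by a ratio of 5.01, more than the group means did.

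**Figure D1:**
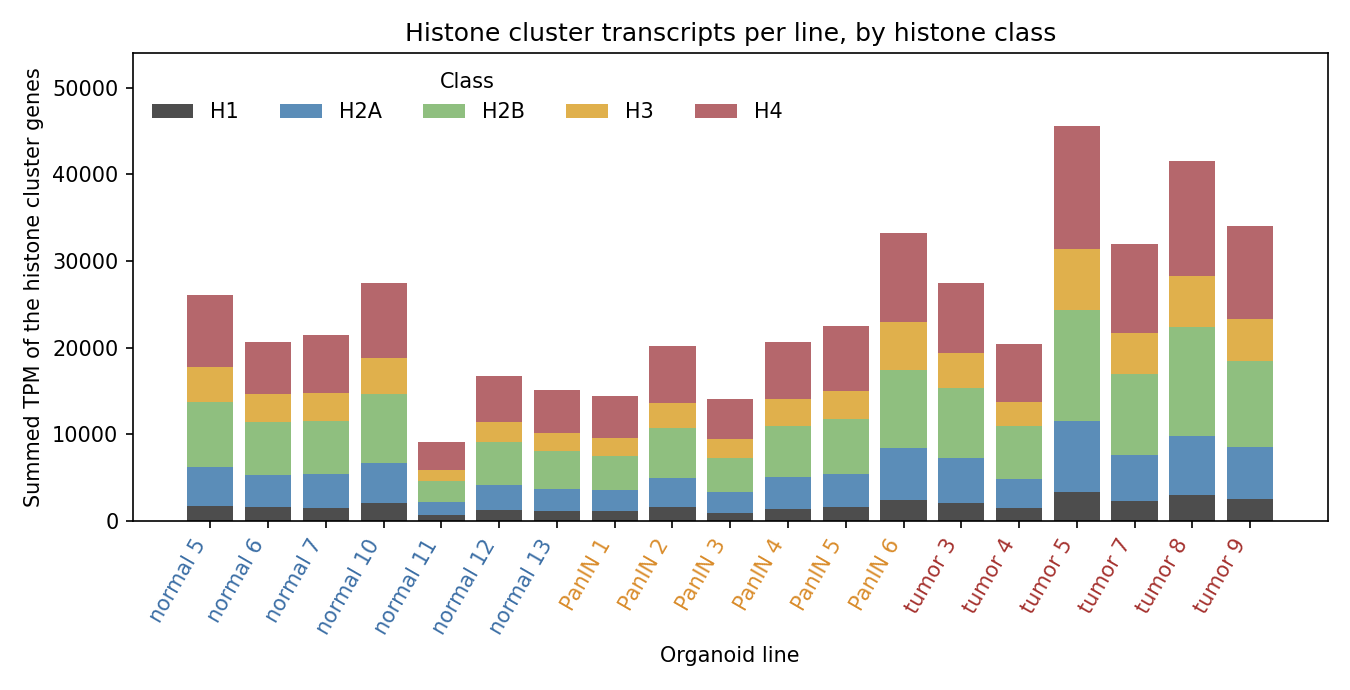
Summed TPM of the 62 histone cluster genes (y axis) in each of the 19 organoid lines (x axis), stacked by histone class. Normal 11 is the lowest bar at 9106 TPM and tumor 5 the highest at 45597 TPM, and the classes keep similar shares in every bar.

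The classes rose and fell together. H4 genes made up 28.9% to 35.0% of the histone sum of a line, H2B genes 27.0% to 30.3%, H2A genes 16.4% to 18.7%, H3 genes 13.3% to 16.6% and H1 genes 6.67% to 8.07%. The mean H1 share was 7.39% ± 0.468 (SD, n = 7) in normal, 7.19% ± 0.451 (SD, n = 6) in PanIN and 7.30% ± 0.199 (SD, n = 6) in tumor lines, and the groups overlapped in every class. Across the 19 lines Pearson's r between 2 tested genes had a median of 0.95 over 1711 pairs, and 84.4% of pairs were above 0.9. These correlations are a description, since the genes share libraries and, for many, reads.

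Single lines set much of this pattern. Normal 11 was the lowest of the normal lines for 59 of 59 tested genes, and tumor 4 the lowest of the tumor lines for 58 of 59. PanIN 6 was the highest PanIN line for 58 of 59 genes, and tumor 5 the highest of all lines for 50 of 59. Counts of calls, and the calls of named genes, are therefore also given below without the lines that end them.

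**Figure D2:**
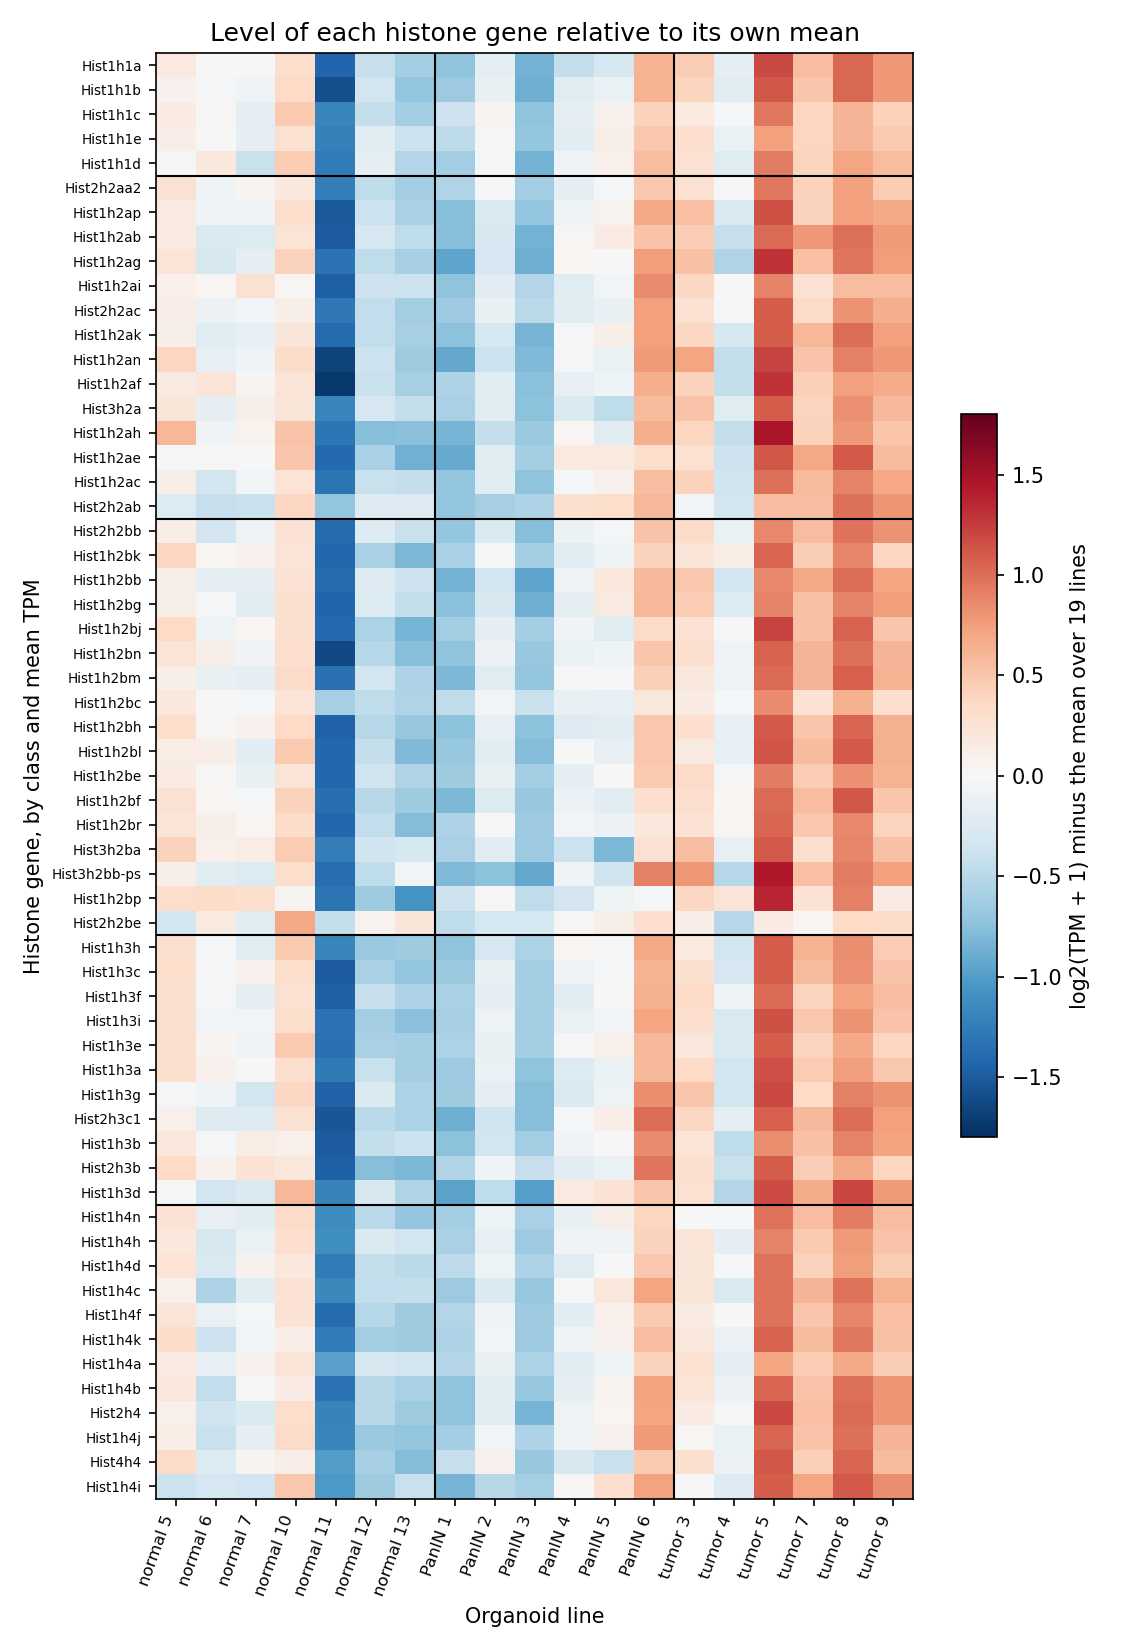
Level of each of the 59 tested histone genes (rows, by class and mean TPM) in each line (columns), as log2(TPM + 1) minus the gene's mean over the 19 lines. Nearly every row follows the same pattern, with normal 11 lowest and tumor 5 and tumor 8 highest, while the row of Hist2h2be is nearly flat.

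The first comparison asks whether lines from tumors differ from lines from normal ducts. In tumor lines 53 of 59 histone genes were higher (adjusted p below 0.05, limma with Benjamini-Hochberg adjustment over 12500 genes), and none was lower. Of all 12500 tested genes 32.2% were called, 17.8% of the tested genes as higher and 14.4% as lower. All 59 histone genes had a positive difference, with a median of 0.84 on the log2(TPM + 1) scale and a range of 0.05 to 0.98, against a median of 0.04 over all tested genes. In bulk RNA a larger share of replicating cells and more histone RNA per cell cannot be told apart. By class the calls were 5 of 5 for H1, 13 of 14 for H2A, 15 of 17 for H2B, 8 of 11 for H3 and 12 of 12 for H4. No histone gene separated the groups fully: 0 of 59 had every tumor line above every normal line, against 2.9% of all tested genes. For 52 of 59 genes, 4 or 5 of the 6 tumor lines lay above every normal line. The matching share of all tested genes was not computed, and the histone genes largely repeat the same order of lines. By the authors' deposited table of comparisons, 55 of 60 histone genes with an adjusted p were below 0.05 and higher in tumor lines, against 32.5% of all rows.

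The H1 genes encode linker histones. Hist1h1a had a lowest, median and highest level of 158, 424 and 533 TPM in normal lines, 236, 331 and 662 TPM in PanIN lines and 379, 679.95 and 972 TPM in tumor lines. Tumor and normal lines overlapped only through tumor 4, and the difference between tumor and normal means was 0.92 ± 0.28 on the log2 scale (SE, adjusted p = 0.0171). Hist1h1b had 127, 360.4 and 489.95 TPM in normal and 335, 597 and 825 TPM in tumor lines, a difference of 0.93 ± 0.28 (SE, adjusted p = 0.0186). Hist1h1c, Hist1h1d and Hist1h1e, also replication-dependent linker histones, were higher by 0.67, 0.69 and 0.62, with adjusted p of 0.0315, 0.043 and 0.0318. These are the smallest changes in the class, and normal and tumor lines overlapped for all 5. Their calls were also the least stable of the class. Hist1h1d was called under 15 of 32 alternative settings, and leaving out any 1 of normal 7, 11, 12 or 13, PanIN 2 or 4, or tumor 5, 7, 8 or 9 gave it an adjusted p of 0.0504 to 0.106. Hist1h1c was called under 23 settings and not without normal 11, 12 or 13 or tumor 5, 8 or 9 (adjusted p of 0.0548 to 0.0843). Hist1h1e was called under 23 settings and not without normal 11 or 13 or tumor 5, 8 or 9 (0.0571 to 0.0775). Hist1h1b lost its call without tumor 5 (0.0501) or tumor 8 (0.0514).

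Among the H2A genes the highest level was that of Hist2h2aa2, with 538, 1203 and 1537 TPM as lowest, median and highest in normal lines and 1239.6, 1720.3 and 2457 TPM in tumor lines. Tumor 4 again was the lowest tumor line, and the difference was 0.73 ± 0.23 (SE, adjusted p = 0.0201). The next in level were Hist1h2ap, higher by 0.85 (adjusted p = 0.0265), and Hist1h2ab, higher by 0.94 (adjusted p = 0.0168). Hist1h2ak and Hist1h2an, other H2A copies, were higher by 0.94 and 0.93. The call of Hist2h2aa2 ended without tumor 5 or 8 (adjusted p of 0.0559 and 0.0524). That of Hist1h2ap ended without normal 11 or 13 or tumor 5, 8 or 9 (0.051 to 0.0711). That of Hist1h2an ended without normal 11, 12 or 13 or tumor 3, 5, 8 or 9 (0.0504 to 0.0836).

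Among the H2B genes Hist2h2bb had the highest level, with 530.2, 1182 and 1665 TPM in normal lines and 1277, 2241 and 2742 TPM in tumor lines. The difference was 0.86 ± 0.25 (SE, adjusted p = 0.013). Hist1h2bk had 388, 1063 and 1349 TPM in normal and 1133, 1382 and 2147 TPM in tumor lines, and was higher by 0.82 (adjusted p = 0.0203). Hist1h2bb, Hist1h2bn and Hist1h2bj, further H2B copies, were higher by 0.85, 0.91 and 0.91. Hist3h2bb-ps, whose symbol marks a pseudogene, had 31.9 ± 10.2 TPM in normal (SD, n = 7) and 62.8 ± 24.5 TPM in tumor lines (SD, n = 6), a difference of 0.92 (adjusted p = 0.0322). Its call ended without normal 11 or 12 or tumor 3, 5, 8 or 9, with adjusted p of 0.0505 to 0.0874. The calls of Hist1h2bk and Hist1h2bn ended without tumor 5 or 8 (0.0509 to 0.0561). That of Hist1h2bb ended without normal 11 or tumor 5, 8 or 9 (0.0513 to 0.0651).

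The H3 genes Hist1h3h, Hist1h3c and Hist1h3f had the highest levels of their class, at 506, 503 and 437 TPM over all lines. In tumor lines they were higher by 0.76, 0.80 and 0.79, with adjusted p of 0.0411, 0.0372 and 0.0243. Hist1h3h and Hist1h3c were each called under 18 of 32 alternative settings. Leaving out any 1 of normal 11, 12 or 13 or tumor 5, 7, 8 or 9 ended both calls, with adjusted p of 0.0663 to 0.106 for Hist1h3h and 0.0572 to 0.0951 for Hist1h3c. The call of Hist1h3f ended without tumor 5 or 8 (0.0655 and 0.0577). The largest difference of any histone gene was that of Hist2h3c1, an H3 gene of the Hist2 group, with 90.45, 224 and 319 TPM in normal, 143, 233 and 528 TPM in PanIN and 233, 417 and 556 TPM in tumor lines. The tumor minus normal difference was 0.98 ± 0.30 (SE, adjusted p = 0.0179). Every one of its 50-base stretches is shared with another gene, so this value may belong to more than 1 copy.

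The H4 genes all encode the same kind of core histone, and all 12 rose in tumor lines. Hist1h4n had 769.9, 1445 and 2113 TPM in normal, 1093, 1542 and 2177 TPM in PanIN and 1627, 2447 and 3269 TPM in tumor lines. It was higher in tumor than in normal lines by 0.79 ± 0.23 (SE, adjusted p = 0.0155). Hist1h4h and Hist1h4d, the next in level, were higher by 0.69 and 0.74. The call of Hist1h4h ended without tumor 5 or 8 (adjusted p of 0.0543 and 0.0536). Hist2h4 had the smallest adjusted p of all histone genes, 0.00986, with 153, 275 and 440.2 TPM in normal and 346, 559.9 and 801 TPM in tumor lines, a difference of 0.97 ± 0.26 (SE). Hist1h4b was higher by 0.94 (adjusted p = 0.0114). Hist1h4i, a gene of lower level, had 28.5, 45.2 and 83.4 TPM in normal, 32.8, 50.9 and 98.3 TPM in PanIN and 50.5, 102 and 128 TPM in tumor lines. Its difference was 0.96 ± 0.27 (SE, adjusted p = 0.0135), and it was the only histone gene called under all 32 alternative settings, with adjusted p of at most 0.0411.

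**Figure D3:**
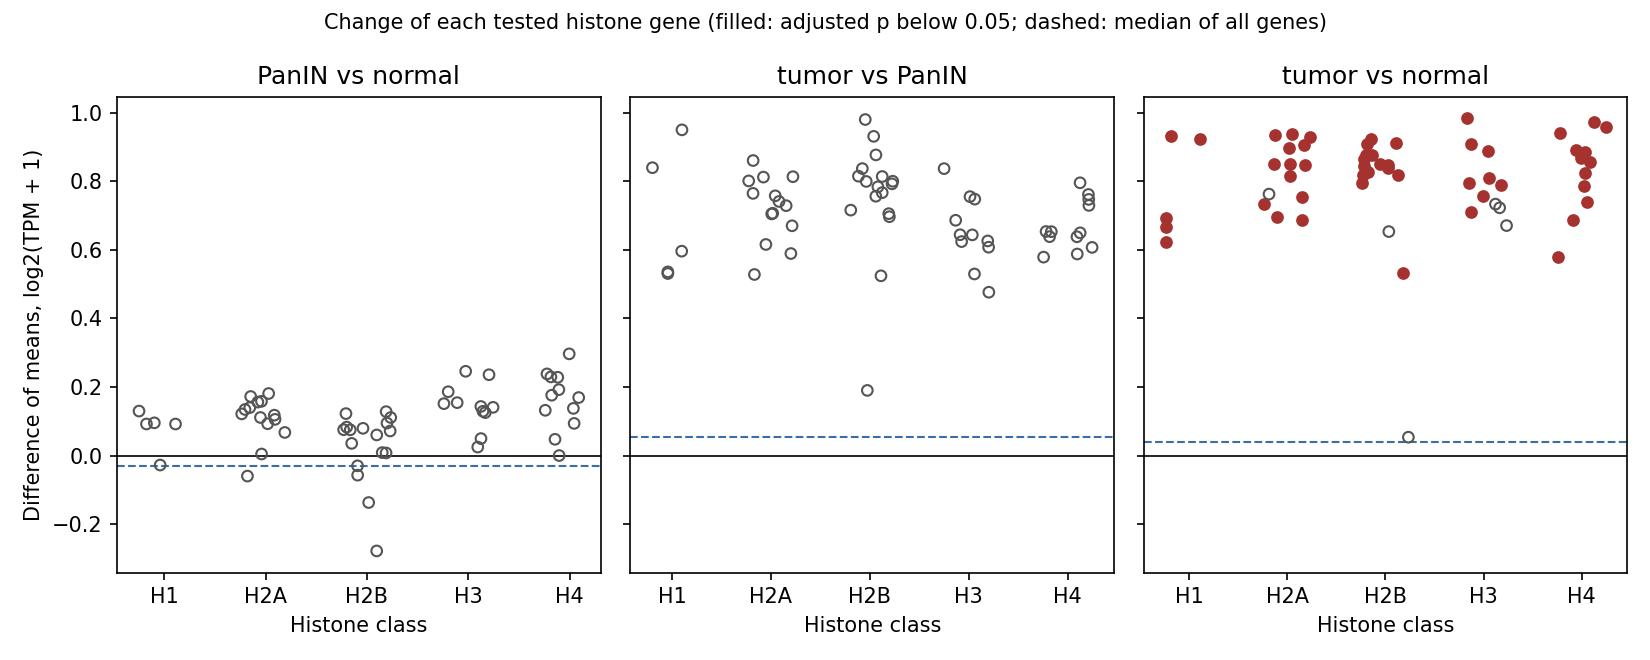
Difference between group means on the log2(TPM + 1) scale (y axis) of each tested histone gene, by class (x axis) and comparison (panels). Filled points have an adjusted p below 0.05, and the dashed line is the median of all tested genes. In the tumor against normal panel 53 of 59 points are filled, in the other panels none.

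The 6 genes that were not called were Hist1h2ah, Hist2h2be, Hist3h2ba, Hist1h3b, Hist1h3e and Hist2h3b. They are named, like Hist1h2bc, Hist2h2ab and Hist1h2bp below, after their values were seen. Of these, 5 had differences of 0.65 to 0.76 with adjusted p of 0.0506 to 0.0734. Hist2h2be stood apart from them, with 2.81, 4.38 and 7.34 TPM in normal, 2.75, 3.68 and 5.35 TPM in PanIN and 2.6, 4.66 and 5.59 TPM in tumor lines. Its tumor and normal lines overlapped throughout, and the difference was 0.05 ± 0.18 (SE, adjusted p = 0.839), with a sign that turned between settings (-0.06 to 0.30). In the authors' deposited table its log2 fold change was 0.01 with an adjusted p of 0.979, at a mean signal of 251. None of its 50-base stretches is shared with another gene, and no stem-loop of the searched form was found in its reference transcript of 2620 bases.

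Hist2h2be was also the gene least like the others across lines. Its Pearson's r with the mean of the other histone genes was 0.61 over 19 lines, and its slope on that mean was 0.34. The next lowest were Hist2h2ab with an r of 0.84 and Hist1h2bp with 0.86. Hist1h2bc, an H2B gene, followed the others with an r of 0.95 but with a slope of 0.63, and its range over lines was narrow, with 214, 319.96 and 383 TPM in normal and 318, 394 and 589.6 TPM in tumor lines. Hist1h2bc was nevertheless higher in tumor lines by 0.53 ± 0.16 (SE, adjusted p = 0.0185), a call that ended without tumor 5 or 8.

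Genes with and without a feature of their sequence had similar medians. The 37 tested genes with a stem-loop match had a median difference between tumor and normal lines of 0.84 and 34 calls, and the 22 without a match a median of 0.83 and 19 calls. Many of those without a match have a reference transcript shorter than 420 bases and may still carry a stem-loop. This split therefore cannot compare genes that have a stem-loop with genes that lack one. The 12 H2A and H2B genes with an octamer had a median of 0.85, and the 15 without one 0.84. Genes with over 50% shared stretches had a median of 0.85 over 26 genes, and the remaining 33 genes had 0.83. These medians describe the lists and were not tested.

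**Figure D4:**
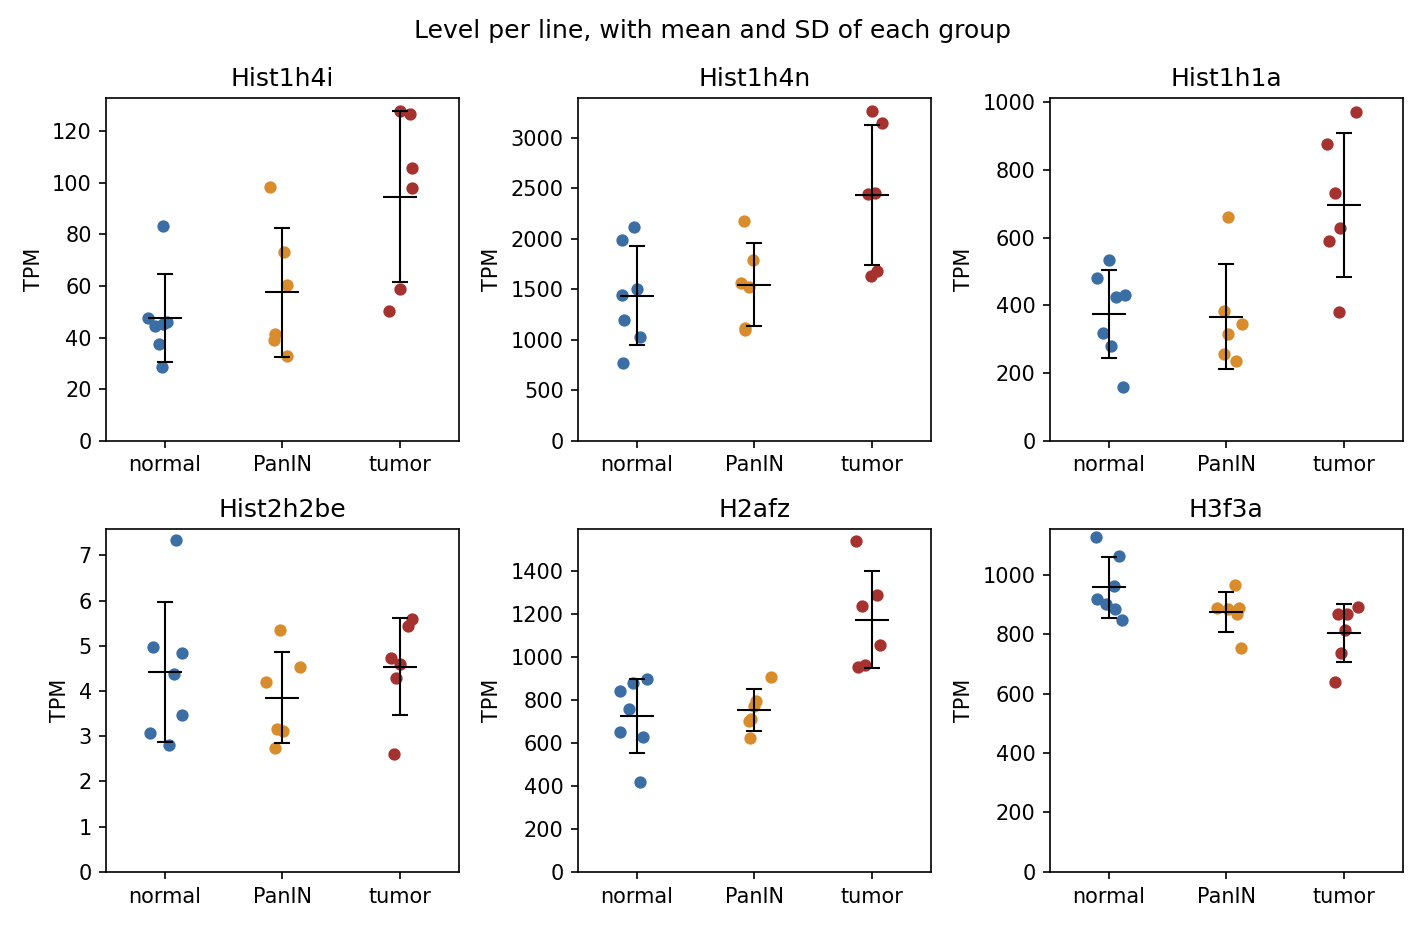
TPM (y axis, from 0) of 4 histone cluster genes and 2 replication-independent histone genes in each line, by group (x axis). Points are lines, and the bar shows mean and SD. Hist1h4i, Hist1h4n and Hist1h1a reach higher levels in most tumor lines, Hist2h2be overlaps throughout, and all 6 tumor lines lie above all 7 normal lines for H2afz.

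The count of calls between tumor and normal lines depended on single lines. Without tumor 8 it was 20 of 59, without tumor 5 it was 21, without normal 11 or tumor 9 it was 34, and without normal 13 it was 35. The median difference was 0.76, 0.74, 0.65, 0.82 and 0.78 in those fits. Calls over all tested genes fell too, to 21.3% without tumor 8 and 23.6% without tumor 5. They were 26.1% without normal 11, 23.2% without tumor 9 and 26.3% without normal 13. The identifiers in the column names fall into 3 series, which are not stated to be batches. In the first are the normal lines 5, 6 and 7, the PanIN lines 1, 2 and 3, and tumor 4. The second has the normal lines 10 and 11, PanIN 4, and the tumor lines 5, 7 and 8. The last has the normal lines 12 and 13, the PanIN lines 5 and 6, and the tumor lines 3 and 9. With the series as a covariate 35 of 59 genes were called, against 29.0% of all tested genes, with a median difference of 0.79. Within the second and the last series all 59 genes were higher in tumor lines, with median differences of 1.35 and 0.97. Within the first, tumor 4 stood alone against 3 normal lines, 4 of 59 genes were higher and the median difference was -0.17. Among female lines (3 tumor, 5 normal) the median difference was 1.13, with 59 of 59 genes higher. Among male lines (3 tumor, 2 normal) it was 0.27, with 58 of 59 higher. Normal 11 is among the female lines, and normal 10 and tumor 4 are among the male lines. Whether series or sex plays a part was not tested beyond these values.

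The second comparison asks whether lines from pancreas with PanIN differ from lines from normal ducts. No histone gene was called (0 of 59 with limma, 0 at an unadjusted p below 0.05, and 0 of 59 in the authors' deposited table), against 6.78% of all tested genes and 10.5% of all rows in the authors' deposited table. The differences had a median of 0.11, a range of -0.28 to 0.30 and were positive for 53 of 59 genes. The extremes, named after their values were seen, were those of Hist1h4j with 0.30 ± 0.26 (SE) and Hist3h2ba with -0.28 ± 0.25 (SE). The lowest adjusted p was 0.601. The sign of the median rested on single lines: it was -0.07 without normal 11, -0.03 without PanIN 6 and -0.20 without both. Within the first series the median difference was -0.53, with 0 of 59 genes higher, and within the last it was 0.78, with 59 of 59 higher.

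The third comparison asks whether tumor lines differ from PanIN lines. All 59 histone genes had a higher mean in tumor lines, with a median difference of 0.72, but none was called (0 of 59), against 1.6% of all tested genes (0.392% of tested genes as higher and 1.21% as lower). An unadjusted p was below 0.05 for 55 genes, and the lowest adjusted p was 0.0617, that of Hist3h2ba. By the authors' deposited table of comparisons, 11 of 59 histone genes were below 0.05, all higher in tumor lines, against 11.7% of all rows. Hist1h2bp, with 19.15, 23.1 and 27.0 TPM in PanIN lines and 29.6, 33.4 and 70.8 TPM in tumor lines, was the single gene with every tumor line above every PanIN line, against 0.832% of all tested genes. Without PanIN 6 the count of calls was 50, without tumor 4 it was 43, without normal 11, which enters through the shared spread, it was 13, and without both normal 11 and PanIN 6 it was 56. Calls over all genes moved with it, to 22.7% without PanIN 6 and 19.2% without tumor 4. They were 6.33% without normal 11 and 24.2% without both normal 11 and PanIN 6. The median differences within the 3 series were 0.31, 0.92 and 0.18. The 3 comparisons share their groups, so their values are not independent of each other.

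The genes that regulate histone transcription and process the stem-loop moved less than the histone genes. Of 21 such genes, 9 rose and none fell in tumor against normal lines, with a median difference of 0.30. The share of all tested genes called in this comparison, for this list and those that follow, was 17.8% as higher and 14.4% as lower. Slbp, whose protein binds the stem-loop, had 67.8, 90.4 and 110.2 TPM as lowest, median and highest in normal lines and 95.05, 123 and 156 TPM in tumor lines. It was higher by 0.39 ± 0.13 (SE, adjusted p = 0.0255). Ccne2, a cyclin that activates Cdk2 at the start of replication, was higher by 0.89 ± 0.25 (SE, adjusted p = 0.0129), and Cdk2 by 0.36 (adjusted p = 0.0171). E2f4, Cpsf3 (the nuclease that cuts histone precursors) and Ncbp1 were higher by 0.48, 0.23 and 0.44. Npat, the coactivator of histone genes, was not called and had 13.6 ± 1.07 TPM in normal (SD, n = 7) and 14.5 ± 0.974 TPM in tumor lines (SD, n = 6).

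Histone chaperones, which carry new histones to DNA, were called as higher for 13 of 22 genes and lower for none, with a median of 0.32, against 17.8% of all tested genes called higher. The smallest p-values in the list were those of Hira, Ssrp1, Set and Nasp, with differences of 0.37, 0.49, 0.50 and 0.54. Nasp, a chaperone of H3 and H4, was also higher in tumor than in PanIN lines, by 0.68 ± 0.17 (SE, adjusted p = 0.0495). Of 27 tested S-phase genes, 21 rose in tumor against normal lines, with a median of 0.53, and of 10 mitosis genes 7 were higher, with a median of 0.71. Examples are Rrm2, a subunit of ribonucleotide reductase, higher by 0.94 ± 0.26 (SE, adjusted p = 0.0116), Tk1 (thymidine kinase) by 0.93 and Pcna (the sliding clamp) by 0.42. Between PanIN and normal lines none of these lists had a called gene.

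The replication-independent histone genes, which are as a rule expressed outside S phase too and have poly(A) tails, did not share 1 direction. Of 11 genes, 2 rose and 4 fell in tumor against normal lines, with a median of -0.00. Over all tested genes 17.8% rose and 14.4% fell, so the count that rose is near the general share. H2afz, encoding H2A.Z, had 419, 760.4 and 897 TPM in normal, 623, 742 and 909 TPM in PanIN and 956, 1149.5 and 1541 TPM in tumor lines. All 6 tumor lines lay above all 7 normal and all 6 PanIN lines, although the tumor minus PanIN difference of 0.63 was not called (adjusted p = 0.0516). The tumor minus normal difference was 0.71 ± 0.16 (SE, adjusted p = 0.0028). Cenpa, the centromere H3, was higher by 0.82. H3f3a, which encodes H3.3, fell by 0.26 on the log2 scale (adjusted p = 0.0277), from 958 ± 102 TPM (SD, n = 7) to 803 ± 97.1 TPM (SD, n = 6). H2afy2, encoding a macroH2A, fell by 1.31, H2afv by 0.38 and H2afj by 0.24. H2afv here and Npat above were named after their values were seen. H2afj was lower in tumor than in PanIN lines too, by 0.39 (adjusted p = 0.0381).

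Line by line, the mean log2 level of the histone genes followed that of each list but the replication-independent histone genes. Pearson's r over 19 lines was 0.95 with the 27 S-phase genes and 0.97 with the 10 mitosis genes, and Spearman's rho 0.93 and 0.97. It was 0.92 for the S-phase genes without normal 11 and tumor 5, and 0.91 within normal, 0.94 within PanIN and 0.98 within tumor lines. With the histone chaperones r was 0.90, and with the regulators and processing genes 0.89. With the replication-independent histone genes r was 0.44 and rho 0.30, and r was 0.80 within normal, -0.29 within PanIN and 0.52 within tumor lines. These are descriptions across lines that share depth, composition and group differences. Normal 11, lowest for the histone genes, was also the lowest line for Mki67, a marker of cycling cells, at 35.9 TPM against 62.5 to 121 TPM in the other normal lines. PanIN 6 had 121 TPM of Mki67, the highest of its group, and tumor 4 had 85.5 TPM, the lowest of its group.

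**Figure D5:**
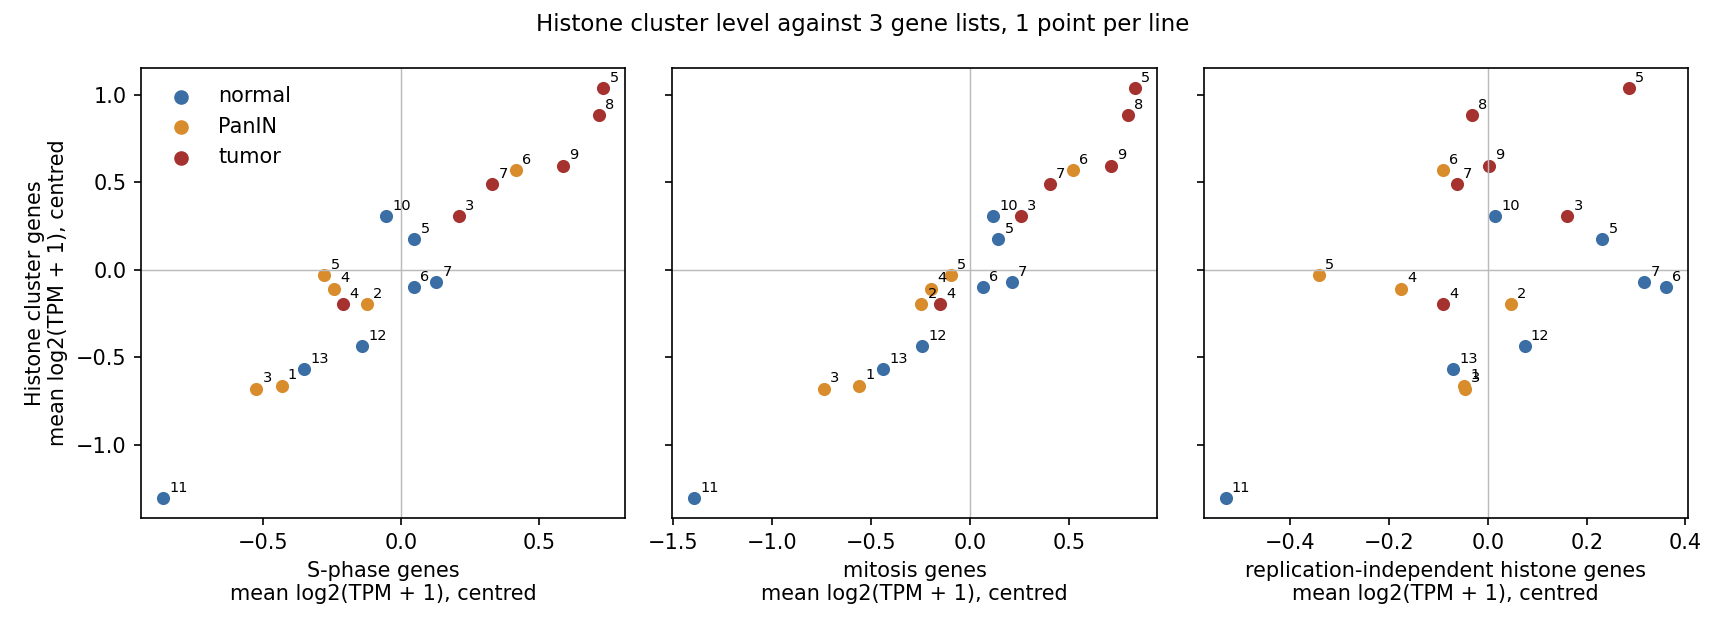
Mean log2(TPM + 1) of the 59 histone genes (y axis) against that of 3 gene lists (x axes), each centred on its mean over the 19 lines. Numbers are line numbers and colours are groups. The points lie close to a line for the S-phase and mitosis genes (r of 0.95 and 0.97) and are scattered for the replication-independent histone genes (r of 0.44).

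Markers of other cells were near 0 in all lines. Krt19, a duct keratin, was at 769 to 1493 TPM and Epcam, an epithelial surface protein, at 344 to 520 TPM. The summed level of the 8 duct epithelium markers moved with the groups. It ranged over 7521 to 12349 TPM in normal, 6588 to 9302 TPM in PanIN and 6021 to 7749 TPM in tumor lines. Within it the keratin Krt8 had 3393 ± 784 TPM in normal (SD, n = 7) and 1873 ± 236 TPM in tumor lines (SD, n = 6), and Krt7 had 552 ± 112 and 755 ± 274 TPM. These 2 were named after their values were seen, and the part of this shift in the histone differences was not tested. Among the markers of fibroblasts (8), endothelium (4), acinar cells (7) and islet cells (6) none reached 1 TPM in any line, and Ptprc, Col1a1 and Pecam1 were at most 0.09, 0.05 and 0.06 TPM. The immune list summed to 4.15 to 8.23 TPM in normal, 2.72 to 3.61 TPM in PanIN and 1.46 to 3.85 TPM in tumor lines, through Cd68 and Csf1r. The rows that the authors' own comparisons leave out, 11 in number, took 16.3% (tumor 5) to 28.6% (normal 11) of a line's TPM, and a change in their share moves every other TPM of that line. With TPM rescaled without them, 48 of 59 histone genes were called in the first comparison, with a median difference of 0.76. Of all tested genes 30.4% were called, and the share of higher genes among all calls went from 55.1% to 37.4%.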

How the data were processed

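RNA of 19 mouse organoid lines was extracted with Trizol and sequenced as ribosome-depleted total RNA (TruSeq Stranded Total RNA with Ribo-Zero), per the labels' protocols. The authors deposited 1 table with TPM per gene and line. Per the submitters' processing notes, FastQC, Bowtie 1.1.0, RSEM 1.2.11, DESeq2 1.4.1, DESeq and the mm9 build were used. The gene annotation behind the values: not given in the sources used here. Per the file headers, the same table holds the authors' own comparisons: a base mean (a normalized signal), a log2 fold change, scores (its standard error and the test statistic), and p-values, raw and adjusted. TPM keeps no depth, so each line's depth is unknown, and no interval for counting error could be set.

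Group differences on the log2(TPM + 1) scale came from limma 3.58.1 (R 4.3.3), fitted over all 19 lines, for 12500 genes with a TPM of at least 1 in at least 6 lines, with a trended prior, two-sided tests and Benjamini-Hochberg adjustment, and were called at an adjusted p below 0.05. On simulated data for tumor against normal lines with 12408 genes, 96.3% of genes changed by 1 on the log2 scale were recovered and 4.41% of calls were false. There 200 genes, none of low level, were changed, and the scatter was drawn independently for each gene. The real comparison called 4024 genes, so its setting differs. Whether these shares hold for the histone genes, which move together across lines, was not tested. Alternatives changed the pseudocount, filter, scaling, covariates, block, fit and lines. Named histone genes were the 12 called genes with the largest change per comparison, the 3 with the highest level per class, all H1 genes and those at the filter. Other genes named were up to 4 per list with the smallest p per comparison, and 5 markers. The members and lists were chosen with earlier results of these data known. Stem-loops came from GENCODE M21 transcripts and promoters from RefSeq (GRCm38.p6), neither of which is the authors' build. A further allele of the PanIN and tumor mice is not reported here. Figures were drawn with matplotlib 3.10.9.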

Additional observations from a re-analysis of the deposited data

Results flagged for a closer look

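Of 234 checks of a named gene or sum within a group of lines, 26 found 1 line standing apart from the others of its group by Dixon's criterion. For a single check chance gives about 1 in 20. The checks are not independent, since many of these genes move together, so 1 line can be flagged many times. PanIN 6 was the line in 19 of the 26, and always the highest. Among the histone genes it had 661.89 TPM of Hist1h1a, 69.53 TPM of Hist3h2bb-ps and a summed H3 level of 5501.48 TPM. Among genes of replication it had 113.51 TPM of Rrm2, 117.25 of Rrm1, 394.67 of Pcna, 88.34 of Mcm3, 58.87 of Fen1 and 18.16 of Pole. Among genes of mitosis it had 121.21 TPM of Mki67 and 39.93 of Bub1. Among regulators and processing genes it had 34.57 TPM of E2f4, 45.95 of Cpsf3, 65.02 of Ncbp1, 26.82 of Ccne2 and 31.68 of Cdk2. It also had 195.8 TPM of Ssrp1, 496.95 of Set and 259.69 of H2afx.

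Normal 11 stood apart as the lowest normal line for Cdk1 with 33.34 TPM and Dut with 26.53 TPM, and for Casp8ap2 with 13.89 TPM. Normal 10 stood apart with 83.35 TPM of Hist1h4i, above the other normal lines. The testis-type genes gave 0.32 TPM of Hist1h2aa in normal 10, 0.15 TPM of Hist1h2ba in PanIN 5 and 0 TPM of Hist1h1t in tumor 8, all at levels below the filter.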

How the results depend on the processing

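Between tumor and normal lines, the 26 called histone genes chosen by the naming rule were higher under all 32 alternatives. Hist2h2be, never called, turned sign (-0.06 to 0.30 over 31 alternatives). Genes of the other lists, and histone genes named after their values were seen, were not given this check of direction. The count of called histone genes, 53 of 59, ranged from 20 (without tumor 8) to 58 (without normal 5 or tumor 4) when 1 line was left out, with 34 without normal 11 or tumor 9, 35 without normal 13 and 21 without tumor 5. Calls over all tested genes were 21.3% without tumor 8, 31.7% without normal 5 and 38.9% without tumor 4. The histone count was 35 with the identifier series as a covariate, 41 with sex as a covariate, and 39 of 62 with no filter. Calls over all tested genes were then 29.0%, 27.6% and 20.3%. With the replicate block on line number the histone count was 1 (Hist1h4i), against 1.8% of all tested genes, and 0 in the other comparisons. The median difference between tumor and normal lines was 0.75 in that fit. A line whose number occurs in only 1 group adds nothing to a difference there. The fit thus rests on fewer lines, and its count is not comparable with the others. Correlations of same-numbered lines' deviations ran from -0.31 to 0.25 over 7 pairs. These values cannot decide whether lines of 1 number share a mouse or litter, which the labels leave unsaid. Between tumor and PanIN lines the count was 0 to 50 with 1 line left out (50 without PanIN 6, 43 without tumor 4, 13 without normal 11) and 56 without both normal 11 and PanIN 6, a setting chosen after seeing the data that called 24.2% of all genes. For PanIN against normal lines it was 0 throughout, while the share of higher genes among all calls went from 45.7% to 56.5% with median-of-ratios scaling. The summed histone TPM, normal lines, was 26273 after rescaling without the rows that lack a comparison, since every value is then a share of a smaller total. The cause of the other shifts was not tested.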
